A study of Mus musculus with 24 samples.

Results

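The neurotrophins and their receptors were followed here as 6 genes, taken by symbol from the count tables out of 55254 genes: the secreted ligands Bdnf and Ntf3, the receptor tyrosine kinases Ntrk2 (TrkB) and Ntrk3 (TrkC), the death-domain receptor Ngfr (p75) and the sorting receptor Sort1 (sortilin). Nuclear RNA came from hippocampi of male C57BL/6N mice aged 6 months, in which nuclei were stained for the neuronal nuclear protein NeuN (the product of Rbfox3) and sorted into NeuN+ and NeuN- fractions. Each fraction had 3 replicates of each of 4 genotypes, 24 libraries in all: wild type (WT), the single knockouts Mutyh-/- and Ogg1-/-, and the double knockout (DKO) obtained by crossing both lines. Ogg1 removes oxidised guanine from DNA and Mutyh removes adenine placed opposite it, and neither knockout is restricted to a cell type, so that neurons and non-neuronal cells both lack the enzyme. Nuclei were pooled from several animals of one genotype, the methods give different numbers of animals for the sort and for the RNA, and whether a replicate is a separate pool is unclear. The p-values therefore measure the spread between these samples, which may be technical.

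Neurotrophins are made as precursors that are cleaved to mature ligands. Mature BDNF binds TrkB and mature NT-3, encoded by Ntf3, binds TrkC, and both receptors pass the signal on through Shc adaptors, the Ras-MAPK and PI3K-Akt routes and phospholipase C. The precursors bind p75 together with sortilin, and sortilin also carries the BDNF precursor into the regulated secretory route. In the hippocampus Bdnf is transcribed from several promoters, of which the one in front of exon IV responds to neuronal activity, and BDNF acting through TrkB is needed for long-lasting synaptic potentiation. A shortened TrkB without the kinase domain is the main form in astrocytes, and gene-level counts pool it with the full-length form, as they pool all Bdnf promoters.

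Upstream sequence from RefSeq on GRCm38.p6 is shown for Bdnf, Ntf3 and Ngfr, because these 3 genes differed most between NeuN+ and NeuN- nuclei, the first 2 in one direction and Ngfr in the other. The windows hold up to 250 bases before an annotated start, without bases that fall in an annotated exon, and 4 of the 6 genes had at least 1 (Bdnf 7, Ntf3 2, Ntrk2 1, Ngfr 1). Capitals mark matches to 3 motifs searched on both strands, none of which lies within another: TGACGTCA (the palindromic cAMP response element), TCACGTCA (the calcium response element described in front of Bdnf exon IV) and CACGTG (an E-box). The Bdnf window is chr2:109692186-109692435 on the plus strand, the Ntf3 windows are chr6:126166911-126166994 and chr6:126164961-126165210 on the minus strand, and the Ngfr window is chr11:95587736-95587948 on the minus strand.
Bdnf, exon IV promoter: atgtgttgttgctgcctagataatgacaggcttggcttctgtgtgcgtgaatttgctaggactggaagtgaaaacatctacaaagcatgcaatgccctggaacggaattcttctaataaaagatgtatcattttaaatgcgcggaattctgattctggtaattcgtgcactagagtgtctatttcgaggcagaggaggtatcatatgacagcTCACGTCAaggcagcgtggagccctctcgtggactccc
Ntf3, first window: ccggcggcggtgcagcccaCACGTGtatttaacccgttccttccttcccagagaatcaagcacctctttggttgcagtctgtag
Ntf3, second window: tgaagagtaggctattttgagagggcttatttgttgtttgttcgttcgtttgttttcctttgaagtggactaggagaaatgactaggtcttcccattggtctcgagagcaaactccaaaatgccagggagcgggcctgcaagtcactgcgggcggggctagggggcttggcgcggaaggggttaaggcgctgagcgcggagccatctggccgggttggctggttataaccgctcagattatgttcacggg
Ngfr: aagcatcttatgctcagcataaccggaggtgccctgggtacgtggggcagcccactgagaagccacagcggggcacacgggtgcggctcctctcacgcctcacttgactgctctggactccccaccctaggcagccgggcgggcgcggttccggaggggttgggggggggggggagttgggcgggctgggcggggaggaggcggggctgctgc
The match to TCACGTCA in the Bdnf window begins 38 bases before the start, and 0.35% of 32851 windows of 250 bases hold this motif. That share is per window and not per gene. Of the 7 Bdnf windows only this one is printed, and the others held none of the 3 motifs. The first Ntf3 window holds CACGTG with its first letter 231 bases before the start, a motif found in 6.02% of all windows. TGACGTCA, present in 1.55% of all windows, was in none of the 11 windows of these genes. A match describes letters in the window and is not a measured binding site.

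On GRCm38 the genes lie on 6 chromosomes. Bdnf spans chr2:109674700-109727007 (plus strand, 11 transcripts in GENCODE vM21), Ntf3 chr6:126101412-126166910 (minus, 3 transcripts), Ntrk2 chr13:58806569-59133970 (plus, 10 transcripts), Ntrk3 chr7:78175959-78738012 (minus, 20 transcripts), Ngfr chr11:95568818-95587735 (minus, 1 transcript) and Sort1 chr3:108284082-108361511 (plus, 3 transcripts). Bdnf, Ntrk2, Ntrk3 and Sort1 overlap other annotated genes. The most abundant antisense partner of Ntrk2, 4930415C11Rik, held 7.72% as many counts as Ntrk2, that of Sort1, Gm12523, held 4.76%, and that of Bdnf, Gm45346, held 2.61%. On the same strand, Gm39038 held 4.32% as many counts as Ntrk3, and Gm43099 held 3.98% as many as Sort1. The handling of strand and of overlaps in the counting is not given in the sources used here, so reads of such partners may be split uncertainly, and none of these overlapping genes differed from WT in a knockout by the rule given below where it was tested (Gm45346 was not tested in NeuN-).

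Total counts per library ranged from 56563586 to 96192142 (median 70434612), all 6 genes passed the low-count filter in both fractions, and 5 of them had at least 101 counts in every library. Ngfr was the shallow one, with 15 to 42 counts per NeuN+ library. The targeted genes were read first. Mutyh was at 8.47 to 12.2 CPM (counts per 1 M counts, scaled with TMM factors over all 24 libraries) in the 6 NeuN+ libraries labelled Mutyh-/- or DKO and at 1.15 to 1.41 CPM in the other 6, and in NeuN- at 6.65 to 9.71 against 2.39 to 3.29 CPM. Ogg1 was not lower in the libraries labelled Ogg1-/-, with 3.46 CPM on average against 3.29 in WT NeuN+ and 6.25 against 6.14 in WT NeuN-. Counts summed over a gene cannot show whether the deleted exons were read, so neither level tests the deletion, and the groups are used as labelled. All 5 neuronal markers (Rbfox3, Snap25, Syt1, Grin1, Camk2a) were higher in WT NeuN+ nuclei, by 3.08 to 4.02 on the log2 scale. All 5 oligodendrocyte, all 5 microglial and all 7 astrocyte markers were lower there, 6 of the 7 astrocyte markers by more than 1. Each fraction had its own sequencing lanes, and a lane effect and a cell type effect cannot be told apart. In such bulk samples fewer cells of a type and less RNA per cell cannot be told apart either.

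**Figure D1:**
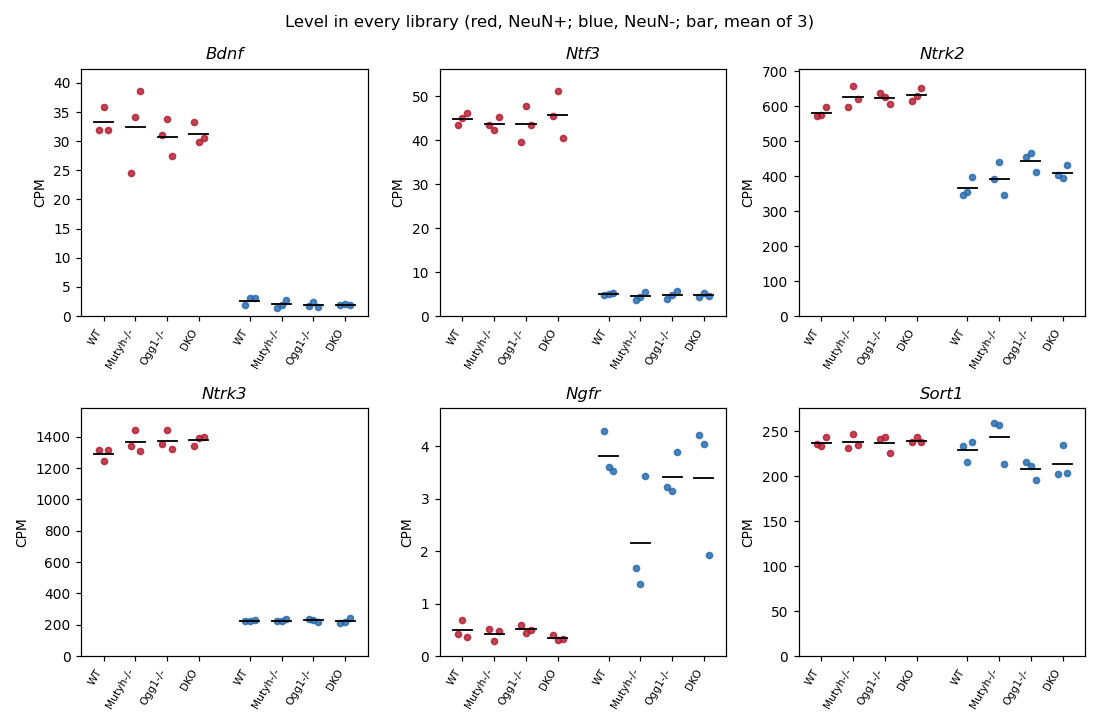
Level of the 6 genes in every library, in CPM on linear axes from 0; red points are NeuN+, blue points NeuN- libraries of the genotype named below, and each bar is the mean of 3. Bdnf, Ntf3 and Ntrk3 stand high in all 12 NeuN+ libraries, Ngfr stands high in the NeuN- libraries with the 2 lowest in Mutyh-/-, and the Sort1 levels of the fractions overlap.

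Between WT fractions, Bdnf, Ntf3 and Ntrk3 were higher in NeuN+ nuclei, Ngfr was higher in NeuN- nuclei, and Ntrk2 was higher in NeuN+ by a smaller factor. With TMM factors, Sort1 did not differ beyond its spread. A gene was counted as differentially expressed (DEG) between fractions when its log2 difference exceeded 1 in either direction at an adjusted p under 0.05, and 4 of the 6 genes were DEGs, 3 higher and 1 lower in NeuN+. Of all 33523 genes tested in edgeR's quasi-likelihood fit of the 24 libraries, 42.9% were DEGs in this comparison, 21.3% higher and 21.6% lower in NeuN+.

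Bdnf, the ligand of TrkB, was at 31.9, 35.9 and 32.0 CPM in WT NeuN+ replicates 1 to 3 and at 1.84, 3.04 and 3.12 CPM in WT NeuN-. The fractions were far apart, and replicate 1 was the low library of WT NeuN-. The difference was 3.65 on the log2 scale (SE 0.20), a 12.6-fold higher level in NeuN+ (adjusted p = 1.265e-13, edgeR quasi-likelihood test). Ntf3, the ligand of TrkC, was at 43.3, 45.1 and 46.1 CPM in WT NeuN+ and at 4.79, 4.97 and 5.30 CPM in WT NeuN-. Its 3 libraries lay close together in both fractions, and it was 8.93-fold higher in NeuN+ (log2 difference 3.16, SE 0.13, adjusted p = 5.609e-16). Set beside neuronal genes, the NeuN- level of Bdnf was 8.02% of its NeuN+ level in WT and that of Ntf3 11.2%, while the 5 neuronal markers stood at 6.17% (Rbfox3) to 11.8% (Snap25). Both ligands thus lay within the range of the markers, and whether their counts in NeuN- came from neuronal RNA was not tested. Bdnf had fewer counts than Ntf3 in each of the 24 libraries, with a ratio of 0.693 to 0.796 in WT NeuN+ and of 0.385 to 0.611 in WT NeuN-.

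Ntrk3 was the most abundant of the 6 by CPM, at 1316, 1244 and 1316 in WT NeuN+ and 221, 226 and 232 in WT NeuN-. All 3 NeuN+ libraries exceeded all 3 NeuN- libraries, the fold was 5.71 (log2 difference 2.51, SE 0.059, adjusted p = 5.373e-20), and the NeuN- level was 17.5% of the NeuN+ level. Ntrk2 was at 572, 575 and 599 CPM in WT NeuN+ and at 346, 355 and 399 CPM in WT NeuN-. The fractions did not overlap, but the difference of 0.67 (SE 0.071, a 1.59-fold higher level in NeuN+, adjusted p = 1.712e-08) stayed under the log2 limit of 1, and the NeuN- level was 63.0% of the NeuN+ level. Its antisense partner 4930415C11Rik was also higher in NeuN+, by 1.84 on the log2 scale (adjusted p = 1.32e-14 by edgeR). The WT libraries of the fractions separated without overlap, higher in NeuN+, in 37.9% of all genes, as those of Ntrk2 and Ntrk3 did.

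Ngfr went the other way, with 0.422, 0.680 and 0.363 CPM in WT NeuN+ and 4.29, 3.59 and 3.53 CPM in WT NeuN-. The log2 difference was -2.96 (SE 0.33, adjusted p = 3.931e-08), so that the NeuN+ level was 0.129 of that in NeuN-, and the NeuN+ values rest on 22 to 42 counts per library. Sort1 was nearly even, at 235, 233 and 244 CPM in WT NeuN+ and at 234, 216 and 238 CPM in WT NeuN-. Its difference was 0.05 (SE 0.068, 95% interval -0.09 to 0.19, adjusted p = 0.5016 by edgeR). When libraries were scaled by total counts, it turned to -0.18 (adjusted p = 0.0044 by edgeR), still under the limit of 1. Whether Sort1 differed between the fractions therefore depends on the scaling. Total-count scaling lowered the differences of the 6 genes between the fractions by 0.229 to 0.234 on the log2 scale.

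**Figure D2:**
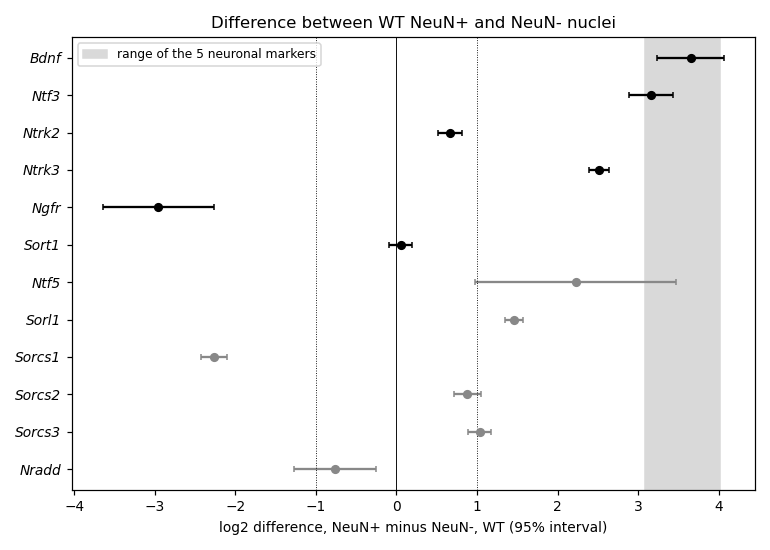
Log2 difference between WT NeuN+ and WT NeuN- nuclei for the 6 genes (black) and 6 further genes of the neurotrophin and sortilin family (grey), with 95% intervals; dotted lines mark the limit of 1 in each direction and the grey band the range of the 5 neuronal markers. Bdnf (3.65) and Ntf3 (3.16) lie in the band, Ntrk3 (2.51) below it, Ngfr (-2.96) on the NeuN- side, and Sort1 at 0.05, or -0.18 by total counts.

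Levels of different genes were compared per length. Per kb of annotated exon, the mean in WT NeuN+ was 42.8 CPM for Ntrk3 (41.2 to 43.6), 31.4 for Sort1 (30.8 to 32.2), 30.2 for Ntrk2 (29.6 to 31.0), 26.2 for Ntf3 (25.3 to 26.9), 5.35 for Bdnf (5.13 to 5.77) and 0.142 for Ngfr. Sort1 and Ntrk2, neighbours in this order, overlapped, and the others did not. In WT NeuN- the order of the means per kb of exon was Sort1 (30.3), Ntrk2 (19.0), Ntrk3 (7.50), Ntf3 (2.93), Ngfr (1.1) and Bdnf (0.429, from 0.297 to 0.501), so that Ntrk3 stood below Sort1 and Ntrk2 there and Ngfr above Bdnf. Whether exons or whole gene bodies were counted is not given in the sources used here, and nuclear RNA holds unspliced transcripts, so the same levels were also divided by gene span. Per kb of span the order in WT NeuN+ was Sort1 (3.07 CPM), Ntrk3 (2.30), Ntrk2 (1.78), Ntf3 (0.685, from 0.662 to 0.704), Bdnf (0.636, from 0.610 to 0.686) and Ngfr (0.0258), and Ntf3 and Bdnf overlapped. In WT NeuN- the order per kb of span was Sort1 (2.96 CPM), Ntrk2 (1.12), Ntrk3 (0.403), Ngfr (0.201, from 0.186 to 0.227), Ntf3 (0.0767, from 0.0732 to 0.0809) and Bdnf (0.051, from 0.0353 to 0.0596). Ngfr thus stood above Ntf3 per kb of span and below it per kb of exon, while Bdnf was the lowest by both measures.

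**Figure D3:**
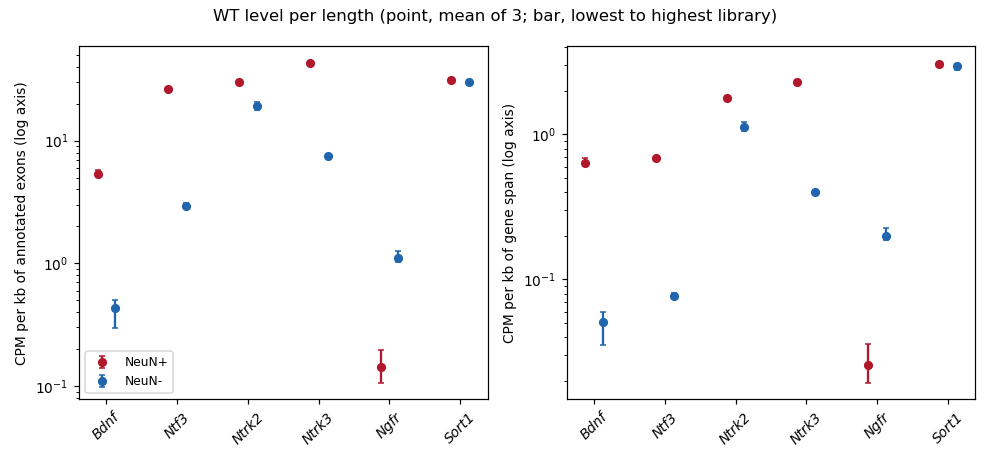
WT level of the 6 genes in CPM per kb of annotated exon (left) and per kb of gene span (right), on log axes; points are means of 3 libraries and bars run from the lowest to the highest library, red for NeuN+ and blue for NeuN-. Per exonic kb Bdnf (5.35) stands under Ntf3 (26.2) in NeuN+, whereas per kb of span they overlap (0.636 and 0.685).

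The knockouts were compared with WT within each fraction, where the limit for a DEG was a log2 difference of 0.5 in either direction, again at an adjusted p under 0.05. None of the 6 genes was a DEG in any of the 6 comparisons. In the 36 tests the lowest adjusted p by edgeR's quasi-likelihood test was 0.2246, 4 had an unadjusted p under 0.05, and DESeq2 called 0 of the 36. Where DESeq2 gave no adjusted p, as for Ngfr in DKO NeuN+, the gene was counted as not called. Of all genes tested in NeuN+, 0.428% (Mutyh-/-), 0.574% (Ogg1-/-) and 0.302% (DKO) were DEGs, and of those tested in NeuN-, 0.273%, 0.229% and 0.116% in the same order. Few genes of any kind passed the rule, and a count of 0 among 6 genes does not set them apart. An unadjusted p under 0.05 was likewise common among all genes, at 18.7%, 12.3% and 13.5% in NeuN+ and 13.7%, 11.8% and 12.4% in NeuN-.

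The ligands stayed close to WT in neurons. In NeuN+, Bdnf was at 24.6, 34.1 and 38.6 CPM in Mutyh-/-, at 31.0, 33.8 and 27.5 in Ogg1-/- and at 33.3, 29.9 and 30.6 in DKO. Every group overlapped WT, and Mutyh-/- was the widest, with an SD of 7.15 CPM against 2.28 in WT. The log2 differences from WT were -0.03 for Mutyh-/- (95% interval -0.29 to 0.22), -0.13 for Ogg1-/- (-0.38 to 0.13) and -0.10 for DKO (-0.36 to 0.15). Ntf3 in NeuN+ was at 43.6, 42.3 and 45.3 CPM in Mutyh-/-, at 39.5, 47.7 and 43.5 in Ogg1-/- and at 45.6, 51.2 and 40.6 in DKO. Its differences of -0.03, -0.06 and 0.01 had intervals between -0.22 and 0.18. All of these intervals for both ligands lie inside the limit of 0.5.

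In NeuN-, Bdnf was at 1.40, 1.99 and 2.76 CPM in Mutyh-/-, at 1.81, 2.39 and 1.59 in Ogg1-/- and at 1.91, 2.01 and 1.94 in DKO. All 3 means (2.05, 1.93 and 1.96 CPM) were under the WT mean of 2.67 CPM, but WT replicate 1, at 1.84, lay inside the range of Mutyh-/- and Ogg1-/- and below every DKO library. The log2 differences were -0.38, -0.47 and -0.45 (SE 0.25 each, adjusted p = 0.524, 0.506 and 0.488) and share the WT libraries. Without WT replicate 1 they were -0.60, -0.68 and -0.66, and without WT replicate 3 -0.25, -0.33 and -0.32. The Mutyh-/- difference was -0.17 without Mutyh-/- replicate 1 and -0.66 without replicate 3. The intervals reach from -1.01 to 0.15 over the 3 knockouts and hold both 0 and falls beyond the limit of 0.5, at 101 to 273 counts per library. The 5 neuronal markers summed to 429 to 512 CPM in WT NeuN-, with replicate 1 the lowest. Their sum was 416 to 454 CPM in the Mutyh-/- libraries, 360 to 437 in Ogg1-/-, and in DKO 355 to 432, and its part in the Bdnf values was not tested. Ntf3 in NeuN- was at 3.73, 4.27 and 5.54 CPM in Mutyh-/-, at 3.93, 4.72 and 5.81 in Ogg1-/- and at 4.44, 5.34 and 4.54 in DKO. These libraries surrounded the WT values, with log2 differences of -0.16, -0.07 and -0.08.

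The Trk receptors gave small differences. Ntrk2 in NeuN+ was at 599, 658 and 620 CPM in Mutyh-/-, at 639, 628 and 607 in Ogg1-/- and at 615, 628 and 652 in DKO. The Ogg1-/- and DKO libraries lay above all 3 WT libraries, and the lowest Mutyh-/- library only just overlapped the highest WT library. The differences were 0.11 (SE 0.046, unadjusted p = 0.0319, adjusted p = 0.225), 0.085 (SE 0.046, adjusted p = 0.494) and 0.10 (SE 0.046, unadjusted p = 0.0413, adjusted p = 0.350 by edgeR). Ntrk3 in NeuN+ was at 1342, 1444 and 1306 CPM in Mutyh-/-, at 1357, 1441 and 1319 in Ogg1-/- and at 1343, 1394 and 1401 in DKO. Again the Ogg1-/- and DKO libraries exceeded all 3 WT libraries, by 0.07 and 0.08 on the log2 scale (SE 0.049, adjusted p = 0.622 and 0.514). Such a separation of 3 and 3 libraries upward was found in 11.1% (Ogg1-/-) and 9.13% (DKO) of all genes in NeuN+, and all comparisons share the WT libraries. The highest upper bound of these 6 intervals was 0.21, below the limit of 0.5.

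In NeuN-, Ntrk2 was at 392, 439 and 348 CPM in Mutyh-/-, at 456, 465 and 411 in Ogg1-/- and at 404, 394 and 433 in DKO, against 346, 355 and 399 in WT. All 3 Ogg1-/- libraries were above all 3 WT libraries, as in 9.52% of all genes, and DKO and Mutyh-/- overlapped WT. The Ogg1-/- difference was 0.27 (SE 0.085, 95% interval 0.08 to 0.45, unadjusted p = 0.00826), and it did not pass the correction over all genes (adjusted p = 0.237). It was 0.16 in DKO (adjusted p = 0.480) and 0.09 in Mutyh-/- (adjusted p = 0.681). The summed level of the 7 astrocyte markers was set beside Ntrk2. That sum was 3233, 3280 and 3812 CPM in WT replicates 1 to 3, 3892, 4361 and 3251 in Mutyh-/-, 4225, 4789 and 3783 in Ogg1-/- and 4089, 4181 and 4058 in DKO. Within WT, Mutyh-/- and Ogg1-/- the libraries held the same order for Ntrk2 and for this sum, and within DKO the order was reversed. The part of this sum in the Ntrk2 values was not tested. Ntrk3 in NeuN- ranged from 210 to 242 CPM over the 9 knockout libraries around the WT values of 221 to 232 CPM, with log2 differences of -0.0063, 0.0030 and -0.03.

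Ngfr differed widely between libraries of some groups. In NeuN- it was at 1.67, 1.37 and 3.43 CPM in Mutyh-/-, at 3.22, 3.14 and 3.89 in Ogg1-/- and at 4.21, 4.04 and 1.91 in DKO, against 4.29, 3.59 and 3.53 in WT. All 3 Mutyh-/- libraries were below WT, replicate 3 by little, and 1 of the 3 DKO libraries was as low as they were. Libraries separated downward in this way in 9.49% of all genes. The Mutyh-/- difference was -0.83 (SE 0.32, 95% interval -1.53 to -0.12, unadjusted p = 0.0249, adjusted p = 0.290), and it was -0.16 in Ogg1-/- and -0.17 in DKO (SE 0.32 each). Without Mutyh-/- NeuN- replicate 3 the difference was -1.33 and passed the rule (adjusted p = 0.0355), and without any other library it did not (adjusted p = 0.342 to 0.646 by edgeR). Mutyh-/- replicate 3 also had the lowest astrocyte sum of its group (3251 CPM). Its summed level of 5 fibroblast and meningeal markers was the highest of the group (40.3 CPM, against 27.2 and 31.7 in the others and 19.0 to 24.5 in WT). In DKO NeuN- the library lowest in Ngfr, replicate 3 (1.91 CPM), had the highest such sum (55.95 CPM, against 28.64 and 25.11). The part of either sum in the Ngfr levels was not tested. The 6 pericyte and smooth muscle markers summed to 68.6 to 73.1 CPM in Mutyh-/- and to 72.7 to 77.7 in WT. In NeuN+ the knockout libraries held 0.290 to 0.590 CPM from 15 to 40 counts, within or below the WT range, and the lowest adjusted p was 0.442, for a difference of -0.53 in DKO (SE 0.29), which was -0.21 without WT NeuN+ replicate 2 and -0.70 to -0.45 without any other library.

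Sort1 stayed close to WT in NeuN+, at 226 to 247 CPM over the 9 knockout libraries against 233 to 244 in WT, and no interval of its differences from WT there went beyond -0.11 or 0.10. In NeuN- it was at 259, 257 and 214 CPM in Mutyh-/-, at 216, 211 and 196 in Ogg1-/- and at 203, 235 and 203 in DKO. The Ogg1-/- libraries lay below all 3 WT libraries, though barely (216.2 against 216.3 CPM at the nearest pair), as 9.84% of all genes did, and the difference was -0.15 (SE 0.081, adjusted p = 0.514). Ogg1-/- was lower than Mutyh-/- by -0.23 (SE 0.081, unadjusted p = 0.0146, adjusted p = 0.282), with libraries that overlapped. The summed level of the 5 oligodendrocyte markers was 5045 to 5667 CPM in Ogg1-/- NeuN-, 5505 to 6765 in Mutyh-/- and 5911 to 6645 in WT, and its part in the Sort1 values was not tested.

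**Figure D4:**
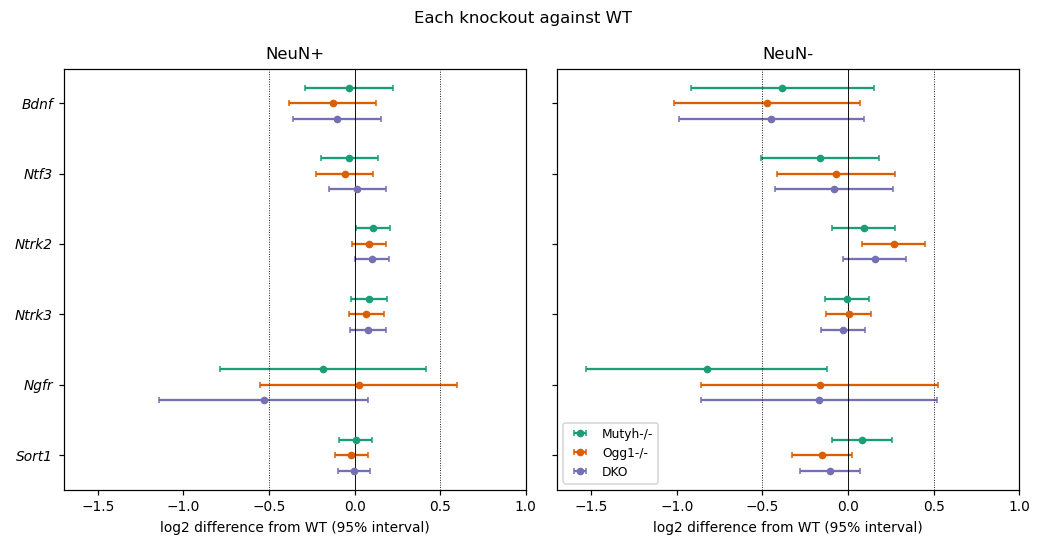
Log2 difference of each knockout from WT for the 6 genes in NeuN+ (left) and NeuN- nuclei (right), with 95% intervals; green is Mutyh-/-, orange Ogg1-/- and purple DKO, and dotted lines mark the limit of 0.5. Points lie near 0 except for Bdnf (-0.38 to -0.47), Ngfr in Mutyh-/- (-0.83) and Ntrk2 in Ogg1-/- (0.27, interval 0.08 to 0.45) of NeuN- and Ngfr in DKO (-0.53) of NeuN+. The widest intervals are those of Ngfr in both fractions and of Bdnf in NeuN-.

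The knockouts were also compared with each other, and the effects between fractions. Between DKO and Ogg1-/-, between DKO and Mutyh-/- and between the single knockouts, 0 of the 6 genes were DEGs in either fraction (edgeR and DESeq2). Of all genes 0.216%, 0.139% and 0.485% were DEGs in these comparisons of NeuN+ and 0.132%, 0.122% and 0.521% in those of NeuN-. Whether a knockout acted differently in NeuN+ and NeuN-, and whether DKO departed from the sum of both single knockouts, gave 30 tests, of which 0 had an unadjusted p under 0.05 by edgeR and the lowest adjusted p was 0.665. An unadjusted p under 0.05 was found in 8.58% (Mutyh-/-), 7.09% (Ogg1-/-) and 9.4% (DKO) of all genes for the difference between fractions, and in 7.95% (NeuN+) and 8% (NeuN-) for the departure from the sum. The largest value among the 30 concerned Ngfr in NeuN-, where DKO minus both single effects was 0.82 (SE 0.45, 95% interval -0.17 to 1.81).

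Ntf3 lies on chromosome 6, 12.8 Mb from Ogg1, in a neighbourhood with many DEGs. Ntf3 itself was not a DEG in either Ogg1-/- or DKO, with log2 differences between -0.08 and 0.01 in both fractions. Within 15 Mb of Ntf3, 16 of 430 tested genes (3.72%) were DEGs in Ogg1-/- and 15 (3.49%) in DKO of NeuN+, against 0.574% and 0.302% of all genes. In NeuN- 15 of 459 (3.27%) and 14 (3.05%) were DEGs, against 0.229% and 0.116%, while Mutyh-/- gave 1 and 0 in this window. The DEGs included Tspan11, higher by 3.21 in Ogg1-/- and 3.37 in DKO of NeuN+, Ret, the receptor tyrosine kinase for GDNF-family ligands, higher by 0.89 and 0.68 there, and Grm7, a presynaptic glutamate receptor, lower by 0.87 and 0.59 in NeuN- (log2 differences of -0.87 and -0.59). None of the 6 genes is on chromosome 4, which holds Mutyh.

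Of 6 further family genes, all tested between WT fractions, 3 were higher and 1 lower in NeuN+ (21.3% and 21.6% of all genes were), with a median log2 difference of 0.955 against -0.0142 over all genes. Ntf5, the second ligand of TrkB, had 4 to 15 counts per WT NeuN+ library and 3 per WT NeuN- library, and its difference of 2.22 has an interval from 0.98 to 3.47. Among relatives of sortilin, Sorl1 (1.46) was higher in NeuN+, Sorcs3 (1.03) was just past the limit and under it without WT NeuN+ replicate 1 (0.99) or by total counts (0.80), Sorcs2 was at 0.88, and Sorcs1 was lower in NeuN+ by -2.27, at 86.8 against 417 CPM. Nradd, a relative of p75, was at -0.76. None of these 6 genes was a DEG against WT where tested (Ntf5 was not tested in NeuN-). The lowest adjusted p was 0.105, for Sorcs2 in Ogg1-/- NeuN- (log2 difference 0.33, SE 0.074).

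Other genes of the pathway came from 5 lists. Their counts of DEGs between the WT fractions stand beside 21.3% higher and 21.6% lower among all genes, and nothing particular to a list is read from them. Of 15 genes induced by BDNF or activity, 10 were higher and 1 lower in WT NeuN+ (median 1.76). Of 13 genes of precursor processing tested, 6 were higher and 3 lower (median 0.21), of 20 partners and effectors of p75, 6 and 4 (median -0.12), of 22 regulators of Bdnf transcription, 4 and 1 (median -0.04), and of 37 Trk adaptors and effectors, 4 and 9 (median -0.34). Examples chosen after their values were seen are Pcsk1, a prohormone convertase (3.63), Npas4, an activity-induced transcription factor (3.98), and Lingo1, a partner of p75 (3.37), on the NeuN+ side. On the NeuN- side they are Rest, a repressor of neuronal genes (-2.59), Mmp2, a matrix metalloproteinase (-5.56), and Gab1, a docking protein (-6.52). In the knockouts, the genes induced by BDNF or activity had a median of -0.23 in Ogg1-/- and -0.16 in DKO of NeuN+, against 0.0086 and -0.00053 over all genes. Of these 15 genes 13 and 11 were below 0 and 0 were called, where 14398 and 15109 of all 30132 genes were below 0. In Mutyh-/- NeuN+ their median was 0.014. In NeuN- their medians were 0.066 (Mutyh-/-), -0.18 (Ogg1-/-) and -0.04 (DKO), against -0.0052, 0.00085 and 0.0066 over all genes. There 5, 12 and 10 of 15 were below 0 and 0 called, where 16298, 15863 and 15445 of all 31863 genes were below 0. Of the p75 list in NeuN-, 12, 16 and 15 of 20 genes were below 0 in the same order, with medians of -0.029, -0.099 and -0.042. The Mutyh-/- count of 12 is near the share of all genes. Below 0 were also 17, 24 and 22 of 37 Trk adaptors and effectors, 9, 14 and 14 of 22 regulators of Bdnf transcription, and 4, 6 and 5 of 13 genes of precursor processing. Of the 112 genes of all lists tested there, 49, 74 and 68 were below 0.

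Of the 112 pathway genes tested in each fraction, 2 passed the rule downward in Ogg1-/- NeuN+, where 0.392% of all genes did. Of these, 1 also passed downward in DKO NeuN+, where 0.246% of all genes did. None passed upward, in Mutyh-/- NeuN+ or in NeuN-. Shc4, a Shc adaptor of receptor tyrosine kinases, was at 28.6, 29.7 and 30.4 CPM in WT NeuN+, at 24.7, 26.2 and 20.3 in Mutyh-/-, at 21.6, 19.6 and 19.0 in Ogg1-/- and at 22.7, 23.6 and 19.5 in DKO. All 9 knockout libraries were below all 3 WT libraries, a separation found in 11.2% (Mutyh-/-), 8.98% (Ogg1-/-) and 8.35% (DKO) of all genes in NeuN+. The log2 difference was -0.58 in Ogg1-/- (SE 0.093, adjusted p = 0.00737), -0.45 in DKO (SE 0.093, adjusted p = 0.0468, under the limit of 0.5) and -0.32 in Mutyh-/- (adjusted p = 0.108), with the WT libraries shared. The Ogg1-/- call was lost without Ogg1-/- NeuN+ replicate 2 (-0.56, adjusted p = 0.0649) or replicate 3 (-0.55, adjusted p = 0.0644) and kept without any other library.

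Bex3, which encodes a protein that binds the death domain of p75, was at 18.8, 21.0 and 20.2 CPM in WT NeuN+, at 14.9, 16.8 and 11.8 in Mutyh-/-, at 15, 14.3 and 13.1 in Ogg1-/- and at 14.2, 14.4 and 11.3 in DKO. Here too all 9 knockout libraries were below WT, as in 11.2%, 8.98% and 8.35% of all genes. The difference was -0.52 in Ogg1-/- (SE 0.12, adjusted p = 0.0457), -0.61 in DKO (SE 0.12, adjusted p = 0.0394) and -0.46 in Mutyh-/- (adjusted p = 0.0773). The Ogg1-/- call was lost without any one of its 6 libraries (adjusted p = 0.0690 to 0.220 by edgeR), and the DKO call was kept only without DKO NeuN+ replicate 1 (adjusted p = 0.0415) and lost without any of the other 5 (up to 0.236). In NeuN- Bex3 was at 7.46 to 7.92 CPM in WT and at 5.57 to 6.77 over the 9 knockout libraries, with differences of -0.30, -0.41 and -0.34 that did not pass the correction (adjusted p = 0.176, 0.0668 and 0.158 by edgeR).

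**Figure D5:**
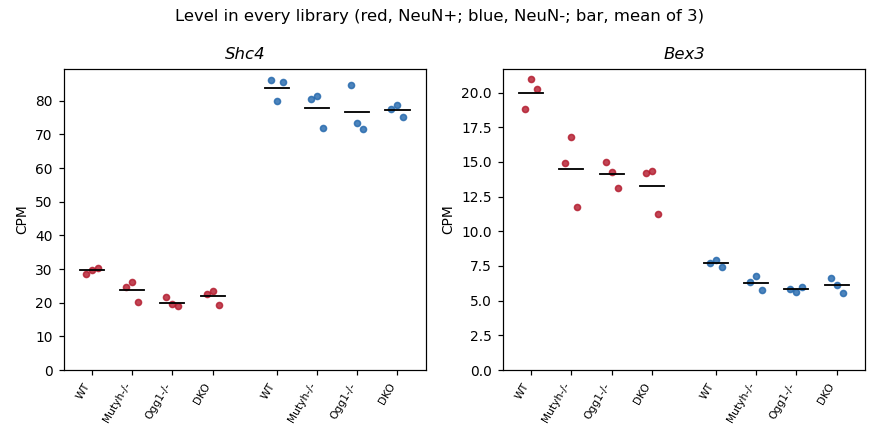
Level of Shc4 and Bex3 in every library, in CPM on linear axes from 0; red points are NeuN+, blue points NeuN- libraries of the genotype named below, and each bar is the mean of 3. In NeuN+ all 9 knockout libraries lie below the WT libraries for both genes, and Shc4 is higher in NeuN- (79.9 to 86.2 CPM in WT) than in NeuN+ (28.6 to 30.4).

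Genes with the most similar pattern were ranked by Pearson's r of log2 CPM over the 24 libraries, where the 2 fractions form separate clusters and the r mostly reflects the difference between them. Among them were Gm9916, Mal2 and Gm31087 for Bdnf (r = 0.997, 0.997 and 0.996), Slc44a5, Stk32c and Fam163b for Ntf3 (0.998, 0.998 and 0.997), Abr and Cdh2 for Ntrk2 (0.985 each), Dlgap1, Prkce and St7 for Ntrk3 (0.999 each), and T2, Tnfaip2 and Gimap1os for Ngfr (0.987, 0.984 and 0.983). Sort1 had no such close match, with Mfsd6 first at 0.862. Over the 12 libraries of the fraction with the higher WT mean (NeuN+ for Sort1, whose fractions did not differ beyond their spread with TMM factors), the first match was another gene in every case: Gm33050 for Bdnf (0.897), Aprt for Ntf3 (0.937), Gm34583 for Ntrk2 (0.935), Pkp4 for Ntrk3 (0.965), Med21 for Sort1 (0.924) and, in NeuN-, Gm7135 for Ngfr (0.981). Each of these is the first of all genes tested in its fraction and is given as a description.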

How the data were processed

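Nuclear RNA of sorted NeuN+ and NeuN- nuclei was sequenced in 24 libraries, 3 per genotype and fraction. The authors aligned read pairs to GRCm38 (mm10) with HISAT2 2.1.0, handled the files with SAMtools 1.10, and deposited raw counts per gene (featureCounts, properly aligned read pairs, Ensembl release 102) without normalization. Tool versions are those of the submitters' processing notes, which also name FastQC 0.11.9, R 4.3.2 and edgeR 3.42.4. Settings for strand, overlapping genes, reads with several alignments and exons or gene bodies are not given in the sources used here.

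From these counts, genotypes were compared within each fraction with R 4.3.3 and edgeR 4.0.16 (filterByExpr, TMM factors, glmQLFit and glmQLFTest with the 4 genotypes of the fraction fitted together), over 30132 genes in NeuN+ and 31863 in NeuN-. The fractions, and the effects between them, were compared in 1 fit of all 24 libraries and 33523 genes. All p-values come from this quasi-likelihood test, and adjusted ones are Benjamini-Hochberg values over all genes tested. Common dispersions gave biological coefficients of variation of 0.0823 (NeuN+) and 0.124 (NeuN-). At least 94.9% of genes with a read differed in count between any 2 libraries of a group, and each library was used as 1 sample. On simulated counts, 99% of genes changed by 1 on the log2 scale were called for DKO against WT in NeuN+ and 88% in NeuN-. Between fractions, where the limit is 1, 50% were called at 1 and 98% at 2. Only genes with a mean above 1 CPM were changed, and only by 1 or 2. The simulation therefore does not cover a level such as that of Ngfr in NeuN+, or smaller differences such as those of Bdnf in NeuN-.

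The genes, the pathway lists and the tests were chosen with earlier results of these data known. Named in the text are the 6 genes, genes of the neurotrophin and sortilin family list, genes of other lists past an adjusted p of 0.05 against WT, the genes most alike in pattern, markers, Ogg1 and Mutyh, and DEGs within 15 Mb of Ntf3; 2 family genes and 1 gene alike in pattern are not reported here. Positions came from GENCODE vM21 on GRCm38 and upstream sequences from RefSeq. Alternatives were a likelihood ratio test, DESeq2 1.42.0, other filters and scalings, fits of 2 groups, a replicate block and fits without 1 library.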

Additional observations from a re-analysis of the deposited data

How the results depend on the processing

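The number of the 6 genes called against WT stayed at 0 in the 6 comparisons under every alternative listed in the methods, with 1 exception: against WT in Mutyh-/- NeuN-, leaving out 1 library gave 0 to 1 calls, the 1 being Ngfr without Mutyh-/- NeuN- replicate 3. Between the fractions it stayed at 4, or 5 with no limit on the fold, where 72.4% of all genes had an adjusted p under 0.05. Of the 36 differences from WT, 23 kept their direction throughout. Sign changes were found for 14 differences, in 33 of 898 values of these and other named genes (26 of them from leaving out a library). The largest such difference was -0.18 on the log2 scale and the largest value after a change -0.18, and the cause was not tested. By total counts, a scaling chosen after seeing the data, the log2 difference became -0.0095 for Ntf3 in DKO NeuN+, -0.0071 for Ntrk3 in Ogg1-/- NeuN-, -0.034 for Sort1 in Mutyh-/- NeuN+ and -0.18 for Sort1 between the fractions. For Sort1 in DKO NeuN+ it became 0.0033 by DESeq2, 0.0032 with RLE size factors and 0.011 without a low-count filter. Leaving out 1 library moved the difference from WT over these ranges: in NeuN+, Bdnf in Mutyh-/- -0.17 to 0.13, Ntf3 in Ogg1-/- -0.12 to 0.0055 and in DKO -0.072 to 0.096, Ngfr in Mutyh-/- -0.35 to 0.14 and in Ogg1-/- -0.15 to 0.34, and Sort1 in Mutyh-/- -0.025 to 0.032, in Ogg1-/- -0.036 to 0.010 and in DKO -0.015 to 0.022. In NeuN- it moved Ntf3 in Ogg1-/- over -0.23 to 0.062, Ntrk3 in Mutyh-/- over -0.038 to 0.014, in Ogg1-/- over -0.024 to 0.036 and in DKO over -0.091 to 0.015, and Ngfr in DKO over -0.36 to 0.11.

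With the replicate number as a block, 0 of the 6 genes were called against WT in every comparison and 4 between the fractions, and Ngfr in Mutyh-/- NeuN- was at -0.84 (adjusted p = 0.327 by edgeR). Between genotypes the samples share only a number: deviations of same-numbered libraries correlated by 0.0463 on average within NeuN- and by -0.00487 within NeuN+. Between the fractions of a genotype all 12 same-numbered pairs were positive (0.0107 to 0.292, mean 0.111, 6 over 0.1), a hint from the data. The mean of -0.0555 for other numbers largely follows from that mean, because the deviations within a group sum to 0. The labels do not say whether a number marks 1 sort. Over all genes the calls of the 6 comparisons with WT moved more, from 37 to 173 DEGs in the main test to 173 to 398 by DESeq2, 168 to 564 by the likelihood ratio test, 73 to 625 without a filter, 10 to 305 with only the 2 groups fitted and 19 to 837 without 1 library. Depth limits Ngfr in NeuN+ (15 to 42 counts per library) and Bdnf in NeuN- (101 to 273).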
